A study of Homo sapiens with 6 samples.

Results

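The respiratory chain of the inner mitochondrial membrane is built from proteins of 2 genomes. The genes described here are 59 of the 59251 rows of the deposited gene table: the 13 proteins encoded by mitochondrial DNA (mtDNA), written without the MT- prefix, and 46 nuclear-encoded subunits of complexes I to V, taken by symbol. The nuclear members comprised 18 subunits of complex I, 4 of complex II, 7 of complex III, 9 of complex IV and 8 of complex V. All 59 had counts in all 6 libraries, the lowest being 36, and all 59 passed the filter on low counts that left 14808 genes for testing.

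The samples were of HCT116, an established line from a human colorectal carcinoma. RNA of cells with the eIF6 substitution N106S on both alleles (MUT, 3 libraries) and of wild-type cells (WT, 3 libraries) was sequenced. eIF6 binds the large ribosomal subunit and keeps it from joining the small one. The mutant cells were clones edited with CRISPR/Cas9 and grown in the same medium as WT, with no drug or other agent given for either genotype. The labels state neither how many clones were sequenced nor whether the 3 libraries of a genotype came from separate cultures. P-values therefore rest on the spread among these 6 samples alone, possibly a technical one, and an effect of the substitution and a property of the clones cannot be told apart. In bulk RNA, fewer copies of mtDNA, fewer mitochondria and less RNA per copy cannot be told apart either.

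The libraries held 53986494 to 80146608 counts in MUT and 63951768 to 87656970 in WT. The RNAs 7SL, 7SK, RPPH1 and RMRP took most of them, and without those RNAs 11094084 to 21984081 counts were left in MUT and 10252501 to 17798865 in WT. MUT replicate 2 stood apart. In it 3.49% of counts fell on rows of nuclear-encoded ribosomal RNA, compared with 0.0885% and 0.137% for MUT replicates 1 and 3, and the second highest share was 1.08%, in WT replicate 1. Values without these libraries are given below for the medians of the mtDNA-encoded and nuclear members, the balance of the genomes and the called genes. Most other values are given for all 6 libraries only. Of the epithelial markers, the keratins KRT8, KRT18 and KRT19 were at 11.6 to 68.4 TPM (a level per transcript length) and EPCAM at 1.13 to 2.97 TPM, while CDH1 reached at most 0.03 TPM and VIL1 at most 0.01 TPM. TPM was scaled over all rows, the abundant RNAs above included, so the TPM of mRNAs is low here. In MUT replicate 1, 298 TPM of mtDNA-encoded members made up 0.566% of protein-coding TPM. A low TPM is therefore not absence, and CDH1 had 0 libraries without counts. PTPRC, a marker of leukocytes, CD3E, a marker of T cells only, and CDH5, which defines endothelium, had a TPM of 0 in all 6 libraries. CD68, a macrophage marker in the leukocyte list, was at 0.11 to 0.47 TPM with no library at 0, and the 5 leukocyte markers summed to 0.21, 0.47 and 0.15 TPM in MUT and 0.13, 0.19 and 0.11 TPM in WT. The summed fibroblast markers were at 0.12, 0.16 and 0.14 TPM in MUT and 0.02, 0.07 and 0.09 TPM in WT.

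Complexes I to IV pass electrons from NADH and succinate to oxygen, and complexes I, III and IV pump protons that complex V, the ATP synthase, uses to make ATP. The mtDNA is transcribed from both strands as long precursors by a single-subunit polymerase, and the precursors are cut, mostly at tRNAs, into mRNAs that ribosomes inside the organelle translate. Complex II is made only of nuclear-encoded proteins, whereas complexes I, III, IV and V need subunits of both genomes.

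Some mtDNA genes share bases, and reads from the shared bases can be counted to either gene. ATP6 and COX3 meet at base 9207, which lies in both. The 2 longer overlaps are described here. ATP8 and ATP6, subunits of the membrane part of the ATP synthase, share 46 bases (mtDNA 8527 to 8572), 22.2% of the 207 bases of ATP8. ND4L and ND4, membrane subunits of complex I, share 7 bases (10760 to 10766). The stretches are shown on the plus strand of GRCh38 because they bound what the counts of these 4 genes can say. Their sequences are from GENCODE transcripts, and the coordinates of these genes are the same in RefSeq. Capitals mark the shared bases, which begin with the start codon of the downstream gene, and 30 bases stand on each side.
ATP8 and ATP6, mtDNA 8497 to 8602: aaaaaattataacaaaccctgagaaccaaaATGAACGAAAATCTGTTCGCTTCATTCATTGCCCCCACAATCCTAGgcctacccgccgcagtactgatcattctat
ND4L and ND4, mtDNA 10730 to 10796: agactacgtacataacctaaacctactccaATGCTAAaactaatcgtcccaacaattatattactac

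RefSeq promoter windows (GRCh38.p14, 250 bases before and 50 after the gene's start) were given for 36 of the 46 nuclear members. Shown are the windows of the members with the smallest p in complexes III, IV, V and I, whose values are given below. Capitals mark matches to motifs of factors known to bind respiratory gene promoters, and the UQCRC2 window held none of the 4 motifs searched. The capitals in COX4I1 and ATP5F1A are the ETS motif CCGGAAG, read on the other strand. Those in NDUFA8 are overlapping matches to the NRF1 motif GCGCATGCG, one on each strand. For ATP5F1A the window of its second start is shown, since the other held no match.
UQCRC2 promoter, chr16:21953111-21953410, plus strand: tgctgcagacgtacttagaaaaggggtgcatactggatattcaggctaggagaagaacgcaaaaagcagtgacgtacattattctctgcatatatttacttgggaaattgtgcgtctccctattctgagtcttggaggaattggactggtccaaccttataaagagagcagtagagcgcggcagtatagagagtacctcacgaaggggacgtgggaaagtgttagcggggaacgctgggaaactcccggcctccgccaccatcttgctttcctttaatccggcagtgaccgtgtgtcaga
COX4I1 promoter, chr16:85799445-85799744, plus strand: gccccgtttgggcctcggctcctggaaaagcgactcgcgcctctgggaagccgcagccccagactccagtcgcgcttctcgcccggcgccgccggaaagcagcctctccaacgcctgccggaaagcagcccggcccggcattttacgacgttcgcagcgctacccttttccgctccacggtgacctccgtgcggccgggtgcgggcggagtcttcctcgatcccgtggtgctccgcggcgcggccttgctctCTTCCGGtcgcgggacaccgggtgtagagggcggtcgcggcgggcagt
ATP5F1A promoter, chr18:46098247-46098546, minus strand: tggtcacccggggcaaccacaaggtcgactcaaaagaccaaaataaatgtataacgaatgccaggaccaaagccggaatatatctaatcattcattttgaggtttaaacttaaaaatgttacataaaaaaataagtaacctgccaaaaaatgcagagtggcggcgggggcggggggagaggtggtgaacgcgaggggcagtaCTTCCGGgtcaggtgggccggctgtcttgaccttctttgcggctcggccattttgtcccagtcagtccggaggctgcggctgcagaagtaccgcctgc
NDUFA8 promoter, chr9:122159730-122160029, minus strand: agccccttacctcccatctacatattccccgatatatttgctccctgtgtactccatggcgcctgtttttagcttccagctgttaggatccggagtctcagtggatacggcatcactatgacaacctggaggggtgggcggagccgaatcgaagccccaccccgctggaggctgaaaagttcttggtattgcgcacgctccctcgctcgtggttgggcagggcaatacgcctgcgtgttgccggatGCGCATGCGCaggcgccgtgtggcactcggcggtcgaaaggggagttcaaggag

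The NRF1 motif stood in the windows of 6 of the 36 nuclear members (16.7%), against 4.29% of 11021 tested genes with a window and 1.92% of all 35116 windows. The 6 were NDUFA5, NDUFA8, NDUFS7, SDHD, COX6A1 and ATP5F1C. The ETS motif stood in 13 of 36 (36.1%), against 22.3% of tested genes and 10.3% of windows, and 5 of the 8 complex IV members with a window held it (COX4I1, COX5B, COX6A1, COX6B1 and COX8A). The YY1 motif AAGATGGC stood in 7 of 36 (19.4%), against 6.37% of tested genes and 2.89% of windows. The ERR motif TCAAGGTCA stood in SDHD alone (2.78%), against 0.218% of tested genes and 0.353% of windows. Both strands were searched, and a gene counted once if any of its windows held the motif. A match is a run of letters, not a bound site.

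MUT and WT were compared by edgeR's quasi-likelihood test over all 14808 genes, and genes whose p, adjusted by Benjamini-Hochberg, was below 0.05 were called. Of all tested genes, 1.91% were called, 0.925% lower and 0.986% higher in MUT. Of the 59 members, 1 was called lower in MUT, UQCRC2 of complex III, and 0 were called higher. At an unadjusted p below 0.05, 19 members were lower and 1 was higher, and lower values at that level made up 9.84% of all tested genes. Higher values at that level were found for 1449 of the 14808. DESeq2's Wald test called 9 members lower and 0 higher, with 2.78% of all genes called lower, and limma-voom called 1 lower, with 0.905% of all genes. Log2 fold changes are MUT over WT throughout. They were below 0 for 45 members and above 0 for 14, with a median of -0.22, while the median of all tested genes was -0.01. The 3 MUT values lay below all 3 WT values for 20 members and above them for 1. Of all tested genes, 13.4% were separated in the first way and 12.8% in the second. The plot of every member's fold change shows the groups side by side.

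**Figure D1:**
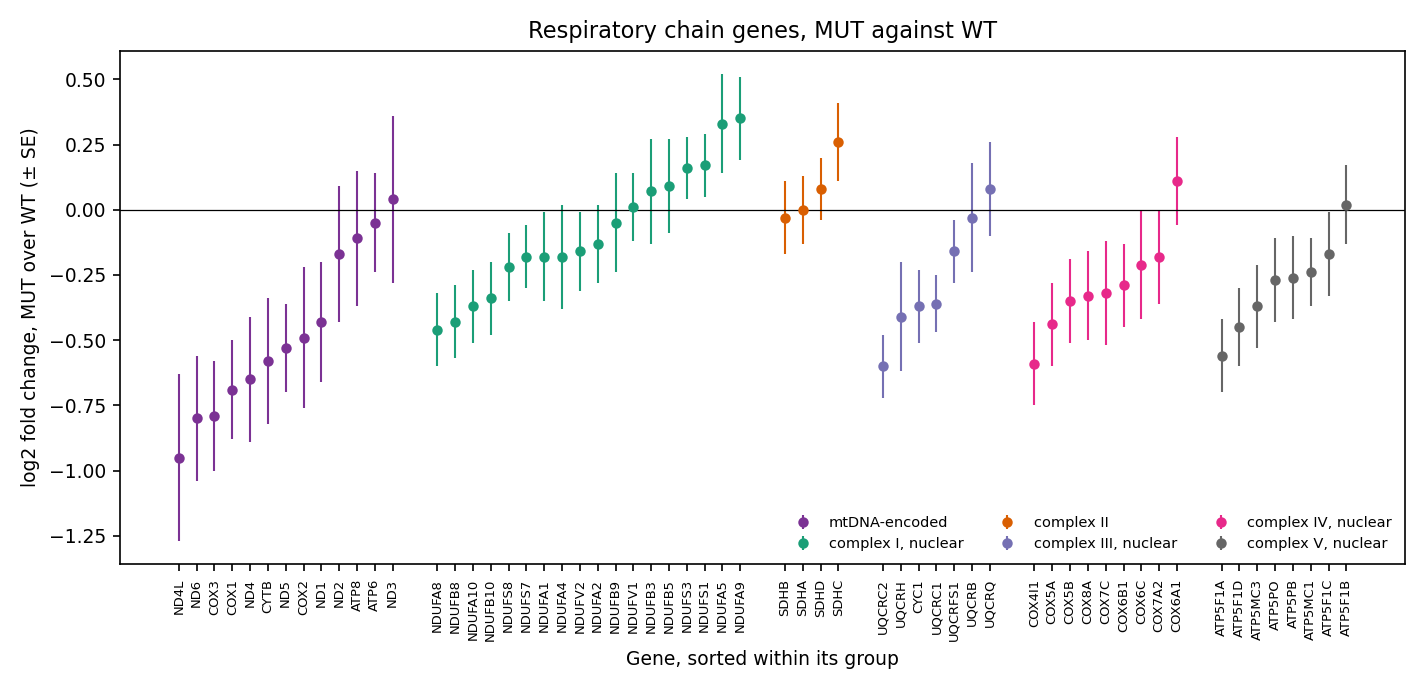
Log2 fold change of each of the 59 members, MUT over WT, with its standard error as a bar, sorted within the mtDNA-encoded group and the nuclear members of each complex. The mtDNA-encoded genes reach from -0.95 (ND4L) to 0.04 (ND3), the nuclear members from -0.60 (UQCRC2) to 0.35 (NDUFA9), and the 4 complex II genes lie between -0.03 and 0.26.

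Of the 13 mtDNA-encoded mRNAs, 12 had log2 fold changes below 0, with a median of -0.53, but edgeR called none, the smallest adjusted p being 0.0955. Without the filter on low counts edgeR called 4 of them lower, at adjusted p of 8.68e-06 (ND4L), 0.000329 (ND6), 0.0156 (COX3) and 0.0283 (ND4). There it called 528 of 29369 genes lower (1.8%) and 1195 in either direction. With the filter, 7 of the 13 were lower and 0 higher at an unadjusted edgeR p below 0.05. DESeq2 called 5 lower (COX1, COX3, ND4, ND4L and ND6), and limma-voom called 0. In 4 of the 13 (30.8%) the MUT and WT values did not overlap, with MUT lower each time: ND5, ND6, COX1 and COX3. Summed over the 13, the level was 1031, 975 and 834 CPM (counts scaled to the TMM-adjusted library size) in MUT replicates 1 to 3 and 1653, 1514 and 1129 CPM in WT replicates 1 to 3. The sums did not overlap.

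COX1, COX2 and COX3 form the catalytic core of complex IV. COX1 was at 349, 321 and 296 CPM in MUT and at 502, 558 and 499 CPM in WT, a log2 fold change of -0.69 (SE 0.19, edgeR adjusted p = 0.0955). COX3 was at 176, 179 and 145 CPM in MUT and at 342, 302 and 219 CPM in WT, a log2 fold change of -0.79 (SE 0.21, edgeR adjusted p = 0.0955). For both genes every MUT library lay below every WT library, but the WT values of COX3 spread far more than those of COX1. COX2, which takes electrons from cytochrome c, was at 149, 143 and 105.6 CPM in MUT and at 241, 202 and 118 CPM in WT. WT replicate 3 lay inside the MUT range, and the log2 fold change was -0.49 (SE 0.27, edgeR adjusted p = 0.36).

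The 7 mtDNA-encoded subunits of complex I make up much of its proton-pumping membrane arm. ND5 was at 20.6, 17.9 and 16.1 CPM in MUT and at 31.6, 26.3 and 21.0 CPM in WT, a log2 fold change of -0.53 (SE 0.17, edgeR adjusted p = 0.135). ND6, the one mtDNA protein gene read from the opposite strand to the others, was at 5.75, 4.61 and 5.30 CPM in MUT and at 12.8, 8.28 and 6.04 CPM in WT, a log2 fold change of -0.80 (SE 0.24, edgeR adjusted p = 0.12). The MUT libraries lay below the WT libraries for both, narrowly so beside WT replicate 3. Whether the counting used strand is not given in the sources used here, so sense ND6 and RNA antisense to it cannot be told apart. ND4L was at 4.15, 4.35 and 3.30 CPM in MUT and at 11.8, 7.0 and 4.05 CPM in WT, the lowest log2 fold change of the 13 (-0.95, SE 0.32, edgeR adjusted p = 0.149). ND4 was at 76.7, 71.3 and 58.7 CPM in MUT and at 146, 108 and 72.0 CPM in WT (-0.65, SE 0.24, edgeR adjusted p = 0.185). For ND4L and ND4 the groups overlapped through WT replicate 3 alone. ND1 was at 36.2, 33.4 and 30.3 CPM in MUT and at 59.6, 45.6 and 29.3 CPM in WT (-0.43, SE 0.23). ND2 was at 43.7, 49.5 and 34.8 CPM in MUT and at 61.9, 53.2 and 28.99 CPM in WT (-0.17, SE 0.26). ND3, the weakest of them, was at 1.24, 1.44 and 0.939 CPM in MUT and at 1.80, 0.882 and 0.833 CPM in WT (0.04, SE 0.32). The groups overlapped for these 3 genes.

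CYTB, the cytochrome b of complex III, was at 83.3, 73.7 and 68.4 CPM in MUT and at 148, 115 and 74.1 CPM in WT, a log2 fold change of -0.58 (SE 0.24, edgeR adjusted p = 0.219). Its groups overlapped through WT replicate 3. The 2 mtDNA-encoded ATP synthase subunits differed least from 0 among the complexes, with a median of -0.08 against -0.69 for the 3 complex IV genes and -0.53 for the 7 complex I genes. ATP6, through which protons pass, was at 77.9, 68.7 and 64.5 CPM in MUT and at 87.1, 77.9 and 53.2 CPM in WT (-0.05, SE 0.19). ATP8 was at 8.08, 7.36 and 5.63 CPM in MUT and at 7.66, 10.3 and 4.63 CPM in WT (-0.11, SE 0.26). WT replicate 3 was lowest of all 6 libraries for both, and the groups overlapped. The signs of ATP6, ATP8 and ND2 turned under other scalings and when single libraries were left out, as listed in the account of the processing.

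**Figure D2:**
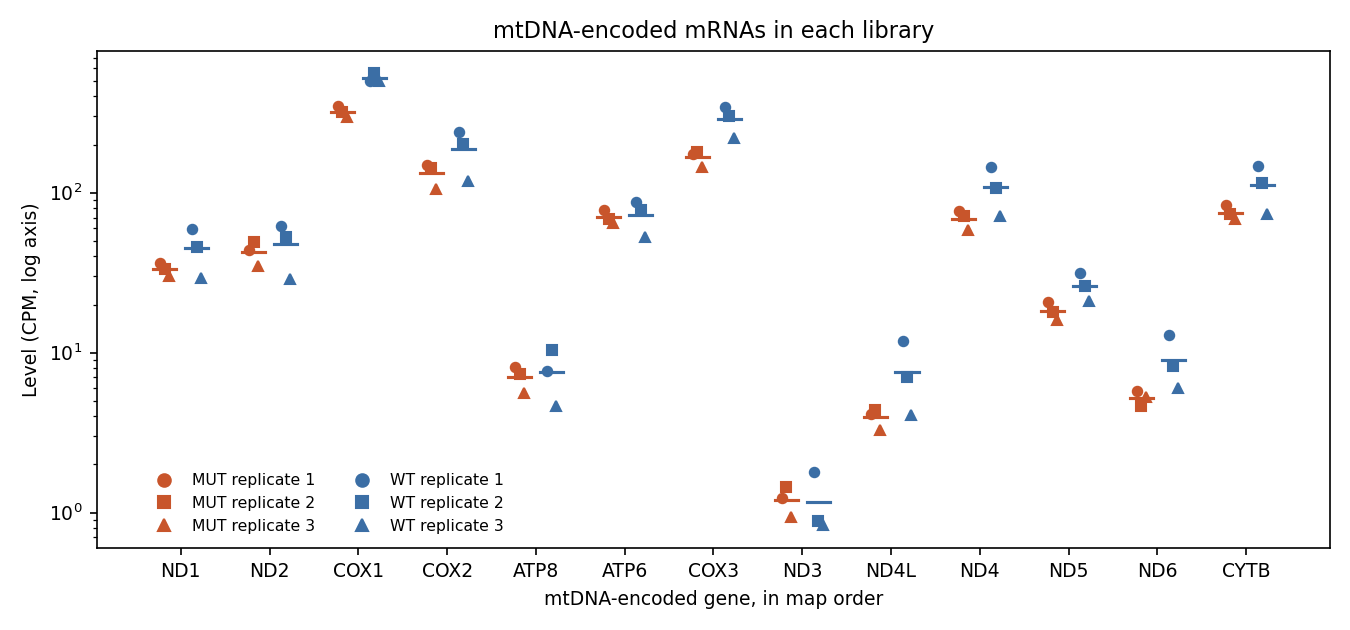
Level in CPM (log axis) of each mtDNA-encoded mRNA, in map order, in the 3 MUT and 3 WT libraries, with a line at each group's mean. WT replicate 3 is the lowest WT library for all 13 genes, and MUT replicate 3 is the lowest MUT library for 12 of 13.

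The WT libraries spread more than the MUT libraries on these genes. The highest WT value was a median of 2.03 times the lowest over the 13 mtDNA-encoded members, against 1.28 times within MUT. Over the 46 nuclear members the same ratio was 1.29 in MUT and 1.22 in WT. WT replicate 3 was the lowest WT library for 13 of the 13 mtDNA genes and for 20 of the 46 nuclear ones. WT replicate 1 was the highest for 11 of the 13 but for 2 of the 46. In MUT, replicate 3 was lowest for 12 of the 13 and for 33 of the 46. Standard errors of the log2 fold changes had a median of 0.24 for mtDNA-encoded and 0.15 for nuclear members. The median of the 13 fold changes was -0.74 without WT replicate 3 and -0.34 without WT replicate 1. Between these same settings ND4L ran from -1.26 to -0.50, ND6 from -1.03 to -0.47 and ND4 from -0.89 to -0.39. CYTB ran from -0.82 to -0.34, COX2 from -0.76 to -0.27 and ND1 from -0.68 to -0.18. COX1 stayed between -0.75 and -0.63 whichever single library was left out.

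Nuclear copies of mtDNA, present in the reference as pseudogenes, can take reads from the mtDNA genes. Of 469 such rows, 29 held any count. The largest was MTATP6P1 (chromosome 1, 633696 to 634376, GRCh38), which matches ATP6 over 681 bases with 10 mismatches (98.53% identity). Its counts equalled 22.4%, 25.1% and 22.8% of those of ATP6 in MUT and 17.0%, 21.5% and 21.6% in WT. The 3 MUT values lay above the 3 WT values. Pseudogenes held at most 9.27% of the reads of ND2 and its copies, 4.13% for ND1, 2.23% for COX3 and 0.252% for COX1, and 0 for ND3, ND4L, ND6 and ATP8. When the counts were summed with those of the pseudogenes, the median of the 13 stayed at -0.53. Reads of ATP6 remain uncertain to that extent.

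The nuclear members had a median log2 fold change of -0.18, with 33 of 46 below 0, and MUT lay below WT without overlap for 16 of them (34.8%, with 13.4% of all tested genes) and above for 1. Their summed level was 2599.9, 2862 and 2336 CPM in MUT replicates 1 to 3, against 2878, 3390 and 2882 CPM in WT. The sums did not overlap, but MUT replicate 2 came close to WT replicate 1. The complexes had medians of -0.36 (III), -0.32 (IV), -0.27 (V), -0.14 (I) and 0.04 (II). The per-library medians of log2 CPM overlapped between the groups for complexes I to IV and did not for complex V.

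In complex III, which passes electrons from ubiquinol to cytochrome c, 6 of 7 nuclear members were below 0. UQCRC2, a core subunit of its matrix side (chromosome 16, 21953361 to 21983660, GRCh38), was at 18.5, 19.1 and 16.1 CPM in MUT and at 25.5, 28.1 and 28.1 CPM in WT. All MUT libraries lay well below all WT libraries. UQCRC2 fell by 0.60 on the log2 scale (SE 0.12, edgeR adjusted p = 0.0422), and was 243rd by p among all tested genes. limma-voom gave an adjusted p of 0.0342 and DESeq2 one of 0.00173. The call was kept without MUT replicate 2 (edgeR adjusted p = 0.0268) and in the 4 libraries low in ribosomal RNA (0.0249). It was lost when any other single library was left out: adjusted p was 0.122 without MUT replicate 1, 0.155 without MUT replicate 3, and 0.146, 0.168 and 0.142 without WT replicates 1, 2 and 3. Over 21 alternatives the gene was called in 10, its adjusted p lay between 0.00173 and 0.983 and its value between -0.69 and -0.36 once the median of all genes was set equal. Before that step its value was -0.05 by library size alone and 0.02 on the log2(TPM + 1) scale, where the medians of all genes were 0.54 and 0.36, so the fall is relative to other genes. Of 9 tested neighbours within 1 Mb with an average log2 CPM above 0, 5 had fold changes below 0 (median -0.14) and 0 were called. Of all tested genes, whatever their level, 51.3% were below 0.

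UQCRC1, the partner core subunit, and CYC1, the cytochrome c1 that hands electrons on, were also separated between the groups, with log2 fold changes of -0.36 (SE 0.11) and -0.37 (SE 0.14), but neither was called. UQCRC1 was at 24.6, 25.2 and 27.1 CPM in MUT and at 30.9, 33.4 and 34.6 CPM in WT. CYC1 was at 76.7, 61.4 and 71.3 CPM in MUT and at 86.5, 93.2 and 91.8 CPM in WT. The highest of the complex was UQCRQ, a small accessory subunit, at 122, 141 and 119 CPM in MUT and at 113, 146 and 103 CPM in WT (0.08, SE 0.18). Its groups overlapped. UQCRFS1, the Rieske iron-sulfur protein, had a value of -0.16 (SE 0.12), and pseudogenes held up to 12.2% of its reads.

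In complex IV, cytochrome c oxidase, 8 of 9 nuclear members were below 0. Of them edgeR called 0, with 2 lower at an unadjusted p below 0.05, DESeq2 called 1 lower and limma-voom called 0. COX4I1, the ubiquitous form of subunit IV (chromosome 16, 85799695 to 85807068), was at 105.7, 112 and 98.9 CPM in MUT and at 149, 179.7 and 148 CPM in WT. The groups did not overlap, and the log2 fold change was -0.59 (SE 0.16, edgeR adjusted p = 0.0923). DESeq2 called it, with an adjusted p of 0.00233, and limma-voom did not (0.0626); over 21 alternatives the adjusted p lay between 0.00233 and 0.979. It lies toward the telomere of 16q. Of its 6 tested neighbours within 1 Mb with an average log2 CPM above 0, 5 had fold changes below 0 (median -0.10) and 0 were called. Of all tested genes, 51.3% were below 0. COX5A, COX5B and COX8A, further structural subunits, were also lower in each MUT library than in any WT library, with values of -0.44, -0.35 and -0.33. COX6A1, the form of subunit VIa found outside muscle, was the one member above 0, at 120.3, 129 and 109 CPM in MUT and at 93.9, 134 and 105 CPM in WT (0.11, SE 0.17). The groups overlapped.

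In complex V, 7 of 8 nuclear members were below 0. Of them edgeR called 0, with 3 lower at an unadjusted p below 0.05, DESeq2 called 2 lower and limma-voom called 0. ATP5F1A, the alpha subunit of the catalytic head, was at 43.9, 56.4 and 46.7 CPM in MUT and at 66.4, 73.5 and 76.5 CPM in WT. The groups did not overlap, and the log2 fold change was -0.56 (SE 0.14, edgeR adjusted p = 0.0834). DESeq2 called it lower (adjusted p = 0.00729), and so did edgeR in the 4 libraries low in ribosomal RNA (-0.72, adjusted p = 0.0388). Over 21 alternatives its adjusted p lay between 0.00729 and 0.962. ATP5F1B, the beta subunit that carries the catalytic sites and pairs with alpha, was at 99.2, 122 and 101 CPM in MUT and at 97.6, 114 and 107 CPM in WT (0.02, SE 0.15). Its groups overlapped. ATP5F1D, the delta subunit of the central stalk, was at 104, 82.3 and 95.9 CPM in MUT and at 123, 134 and 129 CPM in WT (-0.45, SE 0.15), and DESeq2 called it where edgeR did not (adjusted p = 0.147). ATP5MC1 and ATP5MC3, which encode the same mature subunit c of the rotor ring, were also separated, with values of -0.24 and -0.37.

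Complex I, which takes electrons from NADH, was mixed. Of its 18 nuclear members 11 were below 0 and 7 above, and edgeR, DESeq2 and limma-voom each called 0. At an unadjusted edgeR p below 0.05, 4 were lower and 1 higher. NDUFA8, an accessory subunit, had the smallest p, at 17.7, 16.4 and 13.3 CPM in MUT and at 20.2, 24.0 and 20.9 CPM in WT (-0.46, SE 0.14, edgeR adjusted p = 0.128). NDUFA10, NDUFB8, NDUFB10 and NDUFS8 were likewise lower in every MUT library, with values of -0.37, -0.43, -0.34 and -0.22. NDUFA9, an accessory subunit at the foot of the matrix arm, was highest, at 16.4, 20.6 and 14.5 CPM in MUT and at 12.8, 15.1 and 12.5 CPM in WT (0.35, SE 0.16, edgeR adjusted p = 0.254). Its groups overlapped through WT replicate 2. NDUFS3, a core subunit that holds no iron-sulfur cluster, was the one member with every MUT value above every WT value, at 33.4, 30.97 and 30.99 CPM in MUT and at 25.8, 29.6 and 29.97 CPM in WT (0.16, SE 0.12, edgeR adjusted p = 0.504). NDUFA4 was counted here by its name, although the protein is now placed in complex IV, and had a value of -0.18 (SE 0.20).

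Complex II, succinate dehydrogenase, was the one complex with a median above 0. Its 4 members had log2 fold changes from -0.03 to 0.26, edgeR, DESeq2 and limma-voom each called 0, 0 had an unadjusted edgeR p below 0.05, and the groups overlapped for all 4. SDHC, a membrane anchor, was at 19.6, 25.6 and 20.5 CPM in MUT and at 15.6, 19.0 and 20.4 CPM in WT (0.26, SE 0.15). SDHB, the iron-sulfur subunit, was at 40.2, 49.99 and 37.0 CPM in MUT and at 41.5, 45.0 and 42.9 CPM in WT (-0.03, SE 0.14). MUT replicate 2 was the highest library for both, and without it the complex median was -0.06. SDHA, the flavoprotein, had a value of 0.00 (SE 0.13), and pseudogenes held 39.3% to 44.5% of the reads of SDHA and its copies, so its level is uncertain. Among the genes named in the account of the complexes, those beyond the called one and those with the smallest p, the highest or the lowest value of each complex were picked after their values were seen.

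The balance between the genomes was taken within each library as the ratio of the summed TPM of the 13 mtDNA-encoded members to that of the 46 nuclear ones, which does not depend on how libraries are scaled. It was 0.325, 0.298 and 0.291 in MUT replicates 1 to 3 and 0.467, 0.354 and 0.299 in WT replicates 1 to 3. The means were 0.305 ± 0.0180 in MUT and 0.373 ± 0.0855 in WT (SD, n = 3 each), and the groups overlapped, since WT replicate 3 lay within the MUT range. The log2 ratio of the means was -0.29. It was -0.10 without WT replicate 1, -0.43 without WT replicate 3 and -0.28 without MUT replicate 2. In the 4 libraries low in ribosomal RNA it was -0.08. There the median log2 fold changes of the mtDNA-encoded and the nuclear members were equal, at -0.33 each on the scale of the fit to all 6 libraries, where they were -0.53 and -0.18. Those 4 libraries leave out both WT replicate 1 and MUT replicate 2, the libraries richest in ribosomal RNA. With only MUT replicate 2 left out the medians were -0.55 for the mtDNA-encoded and -0.30 for the nuclear members, and with only WT replicate 1 left out they were -0.34 and -0.23. The part of ribosomal RNA in this was not tested.

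Complex by complex, the same ratio was lower in every MUT library for complex IV alone, at 0.404, 0.394 and 0.378 in MUT and 0.617, 0.470 and 0.433 in WT. For complex I it was 0.239, 0.206 and 0.207 in MUT and 0.401, 0.249 and 0.188 in WT. For complex III, with CYTB as its one mtDNA gene, it was 0.190, 0.159 and 0.170 in MUT and 0.259, 0.185 and 0.156 in WT. In complexes I and III WT replicate 3 was the lowest library of all. Complex V went the other way, with a mean of 0.312 ± 0.0283 in MUT and 0.266 ± 0.0704 in WT (SD, n = 3 each), and its groups overlapped. The single pair COX1 over COX4I1, the catalytic subunit of one genome over a regulatory subunit of the other, stood at 1.56, 1.39 and 1.41 in MUT and 1.63, 1.46 and 1.56 in WT, which overlapped.

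**Figure D3:**
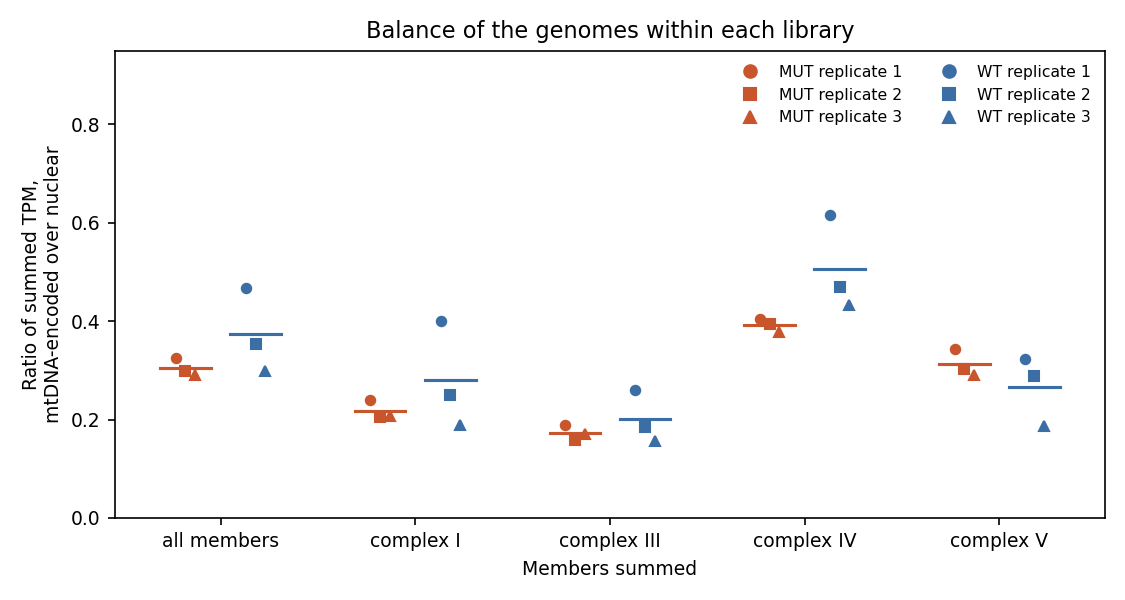
Ratio of summed TPM, mtDNA-encoded over nuclear members, in each of the 3 MUT and 3 WT libraries, for all members and for the complexes that have subunits of both genomes, with a line at each group's mean. The MUT libraries lie between 0.291 and 0.325 for all members, WT replicate 1 stands above the other libraries at 0.467, and the groups are separate for complex IV alone.

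As shares of the library, the groups did not separate for either genome. Of all counts, the mtDNA-encoded members took 0.117% ± 0.0386 in MUT and 0.123% ± 0.0440 in WT, and the nuclear members took 0.325% ± 0.128 in MUT and 0.262% ± 0.0910 in WT (SD, n = 3 each). With 7SL, 7SK, RPPH1 and RMRP RNA taken out, the mtDNA-encoded share was 0.506%, 0.432% and 0.449% in MUT and 0.691%, 0.637% and 0.476% in WT. WT replicate 3 again fell within the MUT range. The nuclear share was then close to even, at 1.27% ± 0.00963 in MUT and 1.28% ± 0.125 in WT. Of protein-coding TPM, the mtDNA-encoded members took 0.577% ± 0.0579 in MUT and 0.661% ± 0.170 in WT. The nuclear mean was higher in MUT on that measure, at 1.90% ± 0.219 against 1.76% ± 0.153 in WT. The groups overlapped for both. Scaling by library size alone put the median of all tested genes at 0.54, of the mtDNA-encoded members at -0.01 and of the nuclear ones at 0.38. Both groups were thus below the typical gene under that scaling too, although the nuclear values lay above 0.

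In TPM, the members differed by orders of magnitude. The lengths behind these TPM were not checked, and an order of genes by TPM rests in part on them. In MUT replicate 1, UQCRB had 4715 counts at 1.87 TPM, while ND1, of 956 bases, had 2715 counts at 10.25 TPM. COX8A, a small subunit of complex IV, was highest, at 114, 223 and 111 TPM in MUT and 105.9, 176 and 81.8 TPM in WT. The mtDNA-encoded COX3, COX1 and COX2 followed among the top 8 in both genotypes, with means of 85.6 ± 42.2, 78.5 ± 32.7 and 79.3 ± 40.0 TPM in MUT and 94.1 ± 37.8, 81.5 ± 29.3 and 71.9 ± 34.3 TPM in WT (SD, n = 3 each). The means of COX1, COX2 and COX3 differed by less than these SDs, but the SDs are taken across libraries and do not decide the order within a library. Within each library COX3 was above COX2, and it was above COX1 in every library but WT replicate 3. The order of COX1 and COX2 changed between libraries. COX6A1, COX7A2, UQCRH and COX6B1 completed the top 8. ND3 was the lowest mtDNA gene, at 1.66 ± 1.003 TPM in MUT and 0.960 ± 0.420 TPM in WT, far below ATP6 at 41.3 ± 16.4 TPM in MUT and 27.9 ± 11.8 TPM in WT. NDUFS1, the largest subunit of complex I, was lowest of all, at 0.170 ± 0.0693 TPM in MUT and 0.0933 ± 0.0231 TPM in WT. By complex, the nuclear medians per library ran from 43.2 to 113 TPM in MUT and 37.8 to 82.8 TPM in WT for complex IV, against 4.05 to 8.81 TPM in MUT and 3.96 to 6.63 TPM in WT for complex III. The median difference, MUT minus WT, on the log2(TPM + 1) scale was 0.36 over the 2853 genes tested on it, so a higher mean TPM in MUT is not by itself a gain over other genes.

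**Figure D4:**
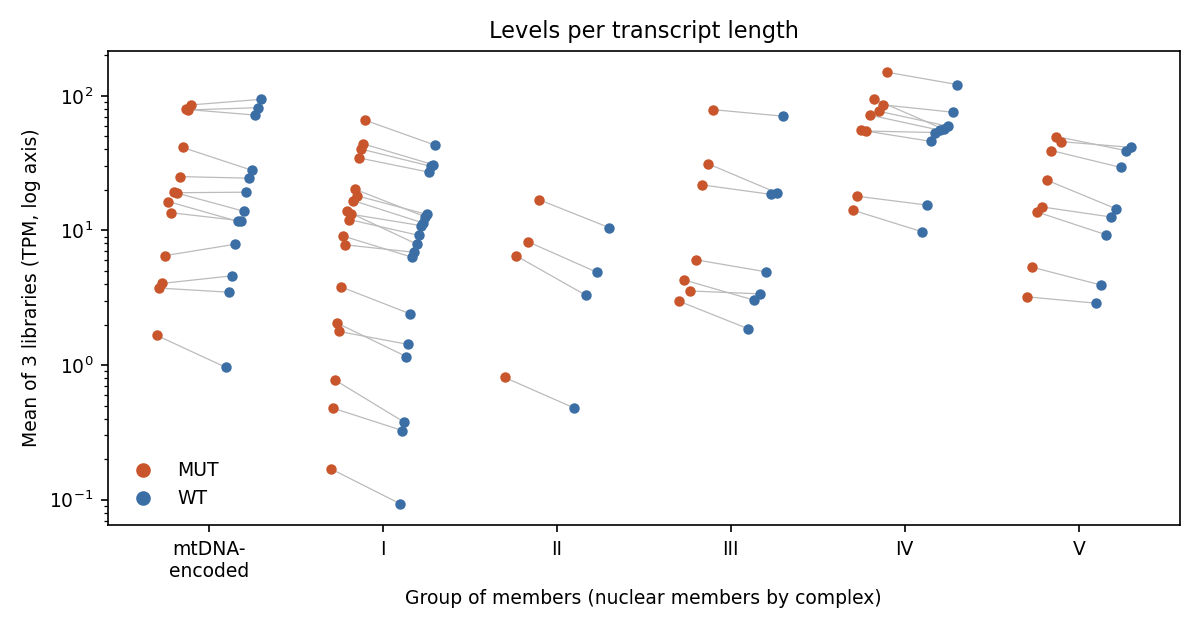
Mean TPM (log axis) of each member in MUT and in WT, the 2 means of a gene joined by a line, for the mtDNA-encoded members and the nuclear members of complexes I to V. Complex IV holds the highest genes, up to COX8A at 149 TPM in MUT and 121 TPM in WT, and complex I reaches lowest, to NDUFS1 at 0.170 TPM in MUT and 0.0933 TPM in WT.

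Other genes of the pathway were read from the same fit. The 33 further nuclear subunits, which the member list leaves out, had 27 values below 0 and a median of -0.20, beside -0.18 for the nuclear members. Of them edgeR called 0, with 6 lower at an unadjusted p below 0.05, DESeq2 called 2 lower (NDUFB7 and NDUFC2) and limma-voom called 0. Subunit forms expressed in particular tissues, such as the muscle form COX6A2, were mostly too low to test, with 2 of 6 tested. Of the 52 assembly factors, 26 were above and 26 below 0, with a median of -0.01. Their MUT and WT values did not overlap for 12 that were lower and 4 that were higher in MUT, and 9 were lower and 3 higher at an unadjusted edgeR p below 0.05. Of all tested genes, 13.4% were separated with MUT lower and 12.8% with MUT higher. At that unadjusted p, 1457 of all 14808 genes were lower and 1449 higher. DESeq2 called 2 of the assembly factors lower and 1 higher, and limma-voom called 1 lower and 1 higher. UQCC3, another complex III assembly factor, named after its values were seen, was at 8.19, 8.17 and 9.72 CPM in MUT and at 12.9, 12.6 and 12.6 CPM in WT. Its groups did not overlap (-0.55, SE 0.12), and edgeR did not call it (adjusted p = 0.0515) where DESeq2 (0.0117) and limma-voom (0.0465) did. The 1 assembly factor called by edgeR was UQCC1, which helps to assemble complex III by acting on cytochrome b. UQCC1 was at 6.70, 6.83 and 6.08 CPM in MUT and at 4.27, 4.61 and 4.40 CPM in WT, so every MUT library was above every WT library. It rose by 0.56 on the log2 scale (SE 0.11, edgeR adjusted p = 0.0371). Without MUT replicate 2 the adjusted p was 0.0482, and without each other library in turn it lay between 0.0992 (MUT replicate 3) and 0.153 (WT replicate 1), which ended the call: 0.125 without MUT replicate 1, and 0.121 and 0.122 without WT replicates 2 and 3. In the 4 libraries low in ribosomal RNA it was 0.099, and over 19 alternatives, of which 11 kept the call, it lay between 0.0158 and 0.336.

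UQCC1 lies at chromosome 20, 35302578 to 35411973, beside EIF6 itself at 35278906 to 35284772 (GRCh38), the edited gene. Within 1 Mb of UQCC1, 24 tested neighbours, EIF6 among them, had an average log2 CPM above 0. Fold changes were below 0 for 18 of them (median -0.10), and 2 were called. Of all tested genes, 51.3% were below 0 and 1.91% were called. Whether the edit bears on genes beside it was not tested. EIF6 was at 36.7, 30.7 and 35.7 CPM in MUT and at 43.3, 47.9 and 47.4 CPM in WT, separated but not called by edgeR (-0.43, SE 0.12, adjusted p = 0.11). DESeq2 called it lower (adjusted p = 0.0442), and over 21 alternatives its adjusted p lay between 0.0442 and 0.885. The edit changes an amino acid, so this level does not check the genotype.

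Genes that keep, copy and transcribe mtDNA had a median of -0.09, with 11 of 16 below 0, and those that process and stabilise its RNA had a median of 0.10, with 14 of 18 above 0. Of either list edgeR called 0. At an unadjusted edgeR p below 0.05 the first list had 2 genes lower and the second 1 lower and 1 higher. DESeq2 called 1 gene of the first list lower, TFB1M, and 0 of the second, and limma-voom called 0 of either. TFAM, which packages mtDNA and starts its transcription, was at 3.78, 5.90 and 4.42 CPM in MUT and at 5.16, 5.88 and 3.73 CPM in WT (-0.07, SE 0.20). POLRMT, the mitochondrial RNA polymerase, had a value of 0.27 (SE 0.15), and its groups overlapped. TFB1M, which methylates the small mitochondrial ribosomal RNA, was at 2.04, 2.63 and 2.36 CPM in MUT and at 3.32, 4.38 and 4.23 CPM in WT (-0.76, SE 0.16, edgeR adjusted p = 0.0501, DESeq2 adjusted p = 0.0119), with no overlap. LRPPRC and SLIRP, which together stabilise mitochondrial mRNAs, had values of -0.20 (SE 0.11) and 0.27 (SE 0.19). These 5 genes were picked for their roles or after their values were seen. Of 13 mitochondrial translation factors, 7 were above and 6 below 0 (median 0.01). Of them edgeR called 0, with 2 higher and 1 lower at an unadjusted p below 0.05, DESeq2 called 1 lower, the elongation factor TUFM, and limma-voom called 0.

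Of 9 nuclear regulators of respiratory genes, 7 were expressed enough to test, 3 above and 4 below 0. Of them edgeR, DESeq2 and limma-voom each called 0, with 2 lower at an unadjusted edgeR p below 0.05. The coactivator PPARGC1A had 0 CPM in all 6 libraries. NRF1, the factor whose motif is marked above, was at 2.29, 1.78 and 2.43 CPM in MUT and at 2.74, 2.54 and 4.42 CPM in WT (-0.57, SE 0.23, edgeR adjusted p = 0.214). ESRRA was at 9.76, 8.43 and 9.59 CPM in MUT and at 11.1, 10.6 and 12.1 CPM in WT (-0.28, SE 0.12, edgeR adjusted p = 0.229). The groups did not overlap for either gene, which were named after their values were seen.

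The group medians were recomputed under other processing. With the median of all genes set to that of the edgeR fit to all libraries, the mtDNA-encoded median stayed below 0 in every alternative run, and so did the nuclear median, which ran up to -0.04 on the log2(TPM + 1) scale. The mtDNA-encoded median was the lower of the pair in each of them apart from the 4 libraries low in ribosomal RNA. On the log2(TPM + 1) and log2(TPM + 0.1) scales the nuclear median leaves out NDUFS1, NDUFA5, NDUFA9 and SDHA, which were too low in TPM.

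**Figure D5:**
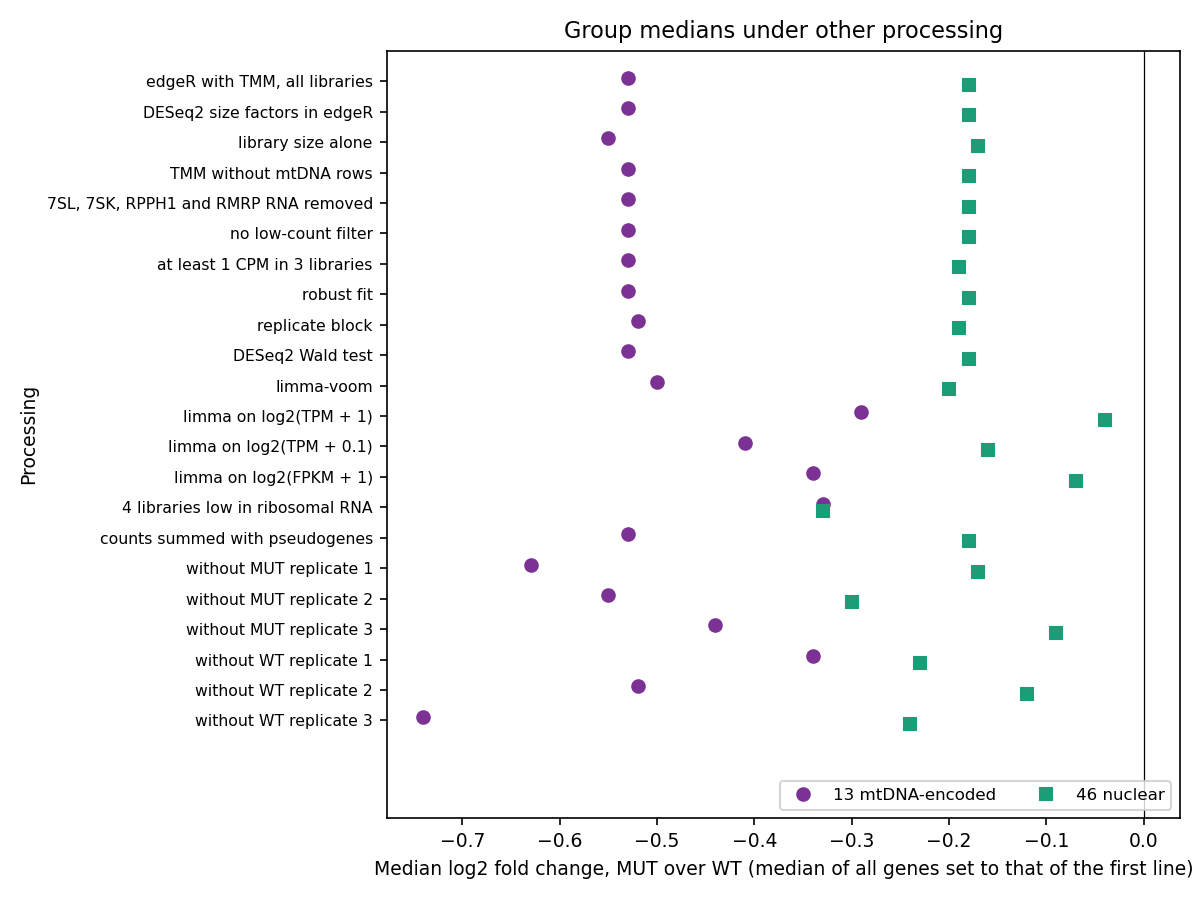
Median log2 fold change, MUT over WT, of the mtDNA-encoded (13) and nuclear (46) members that passed the filter of each way of processing. The median of all genes is set to that of the edgeR fit on the first line. On the 2 TPM scales NDUFS1, NDUFA5, NDUFA9 and SDHA did not reach 1 TPM in 3 libraries and are left out. The mtDNA-encoded median runs from -0.74 (without WT replicate 3) to -0.29 (log2(TPM + 1)), and the nuclear median from -0.33 (4 libraries low in ribosomal RNA) to -0.04 (log2(TPM + 1)).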

How the data were processed

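RNA of 3 MUT and 3 WT libraries was measured by sequencing. The authors deposited expected counts, TPM and FPKM for 59251 gene symbols. Per the submitters' processing notes the tools were STAR 2.5.2b, FastQC 0.12.1, DESeq2 1.42.0 and RSEM 1.2.28, with no roles given, on build hg38 (GRCh38); strand settings are not given in the sources used here. The deposited expected counts were all whole numbers, so rounding changed 0 of them. TPM and FPKM, normalised by the authors for depth and length, served for levels, ratios and alternatives. RSEM-type estimates divide reads among near-identical copies, so genes with pseudogenes are uncertain.

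Counts were tested in R 4.3.3 with edgeR 4.0.16 (filterByExpr with a minimum count of 10 and total of 15, TMM factors, glmQLFit and glmQLFTest, no covariate), with Benjamini-Hochberg adjustment over 14808 genes and a threshold of 0.05. A standard error is the log2 fold change divided by the square root of F. CPM is relative to the TMM-scaled library. Medians, sums and ratios over members carry no test. The procedure was tested on simulated data. Named were EIF6, the 13 mtDNA-encoded members, every called member, the member of each complex with the smallest p, the highest and the lowest value, called genes of other lists and the pseudogenes with the most counts. Members and lists were chosen with earlier results of these data known.

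Alternatives were DESeq2's size factors, library size alone, TMM without mtDNA rows, removal of 7SL, 7SK, RPPH1 and RMRP RNA, no filter, a robust fit, 1 CPM in 3 libraries, a block for the replicate number, DESeq2's Wald test, limma 3.58.1 (voom, log2(TPM + 1), log2(TPM + 0.1), log2(FPKM + 1)), 4 libraries low in ribosomal RNA, counts summed with pseudogenes, and each library left out. Ribosome profiling is not analysed here.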

Additional observations from a re-analysis of the deposited data

How the results depend on the processing

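All values under alternatives are log2 fold changes, MUT over WT, with the median of all genes set to that of the edgeR fit to all libraries; before that step the median of all genes was 0.54 by library size alone and 0.36, 0.49 and 0.33 on the log2(TPM + 1), log2(TPM + 0.1) and log2(FPKM + 1) scales. Against 283 genes called, 108 were called by library size alone, 1195 with no filter, 462 with a minimum of 1 CPM, 552 in the robust fit, 764 by DESeq2, and 21, 10 and 13 on the log2(TPM + 1), log2(TPM + 0.1) and log2(FPKM + 1) scales. Against 1 member called lower, 0 were called by library size alone, without 7SL, 7SK, RPPH1 and RMRP RNA (UQCRC2 at an adjusted p of 0.05) and on the 3 TPM and FPKM scales, 5 with no filter (UQCRC2 and the mtDNA-encoded ND4L, ND6, COX3 and ND4), 3 in the robust fit, 9 by DESeq2 and 2 in the 4 libraries low in ribosomal RNA. With the replicate number as a block 0 members and 296 genes were called (UQCRC2 at an adjusted p of 0.0531). Deviations of same-numbered libraries correlated at -0.29, -0.04 and 0.22, and those of MUT replicate 2 and WT replicate 1 at 0.37. With 3 libraries per group such values cannot settle whether the numbers pair the samples. Leaving out 1 library gave 27 to 442 called genes and 0 to 1 called member. On the log2(TPM + 1) scale the medians were 0.04 for complex I, 0.22 for II, -0.15 for III, -0.10 for IV and -0.06 for V. Those for complexes I and II rest on fewer members. NDUFS1, NDUFA5, NDUFA9 and SDHA did not reach the required 1 TPM in 3 libraries. Complex V was at -0.10 on the log2(FPKM + 1) scale and -0.42 in the 4 libraries. Signs turned for single genes near 0: by library size alone SDHB was at 0.01; with limma-voom ATP6 was at 0.00; on the log2(TPM + 1) scale ND2 was at 0.08, ATP6 at 0.20, ATP8 at 0.15 and SDHB at 0.17; on the log2(TPM + 0.1) scale ATP6 was at 0.09, ATP8 at 0.07 and SDHB at 0.07; on the log2(FPKM + 1) scale ND2 was at 0.06, ATP6 at 0.16, ATP8 at 0.13 and SDHB at 0.14; in the 4 libraries ATP6 was at 0.12, UQCRQ at -0.05, COX6A1 at -0.06 and ATP5F1B at -0.14. With 1 library left out the values ran from -0.15 to 0.07 for SDHB, -0.15 to 0.49 for ND3, -0.07 to 0.08 for ATP5F1B, -0.25 to 0.10 for ATP6, -0.38 to 0.20 for ATP8, -0.45 to 0.05 for ND2, -0.01 to 0.27 for COX6A1 and -0.04 to 0.26 for UQCRQ. The causes were not tested, apart from fewer genes (2853 with TPM, 6231 with FPKM) or fewer samples by construction. The other single genes recomputed this way kept their sign in the alternatives run. With 1 library left out, the log2 ratio of the share of counts ran from -0.39 to 0.18 for the mtDNA-encoded and from -0.06 to 0.62 for the nuclear members. The use of summed counts in the ratio of the genomes (-0.37) and of the 4 libraries for it (-0.08) was chosen after seeing the data. Mitochondrial ribosomal RNA counts ran from 63 to 10824 in MUT and from 102 to 3664 in WT and give no usable level.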

Other observations

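Genes of the mitochondrial membranes and of import, with VDAC, prohibitin and chaperone genes among them, had a median log2 fold change of -0.13, with 13 of 17 below 0. Of them edgeR called 0, with 6 lower at an unadjusted p below 0.05, while DESeq2 called 5 lower and limma-voom 1. Of all tested genes, 9.84% were lower at that unadjusted p, and DESeq2 called 2.78% and limma-voom 0.905% lower. SLC25A3 carries phosphate into the matrix for ATP synthesis, and SLC25A5 and SLC25A6 exchange ADP for ATP. These 3 genes were named after their values were seen. SLC25A3 was at 107, 112 and 108 CPM in MUT and at 152, 176 and 186 CPM in WT (-0.65, SE 0.15, edgeR adjusted p = 0.0654). SLC25A5 was at 147, 146 and 135 CPM in MUT and at 203, 247 and 218 CPM in WT (-0.64, SE 0.16, edgeR adjusted p = 0.081). SLC25A6 was at 189, 180.3 and 176 CPM in MUT and at 269, 334 and 268 CPM in WT (-0.67, SE 0.18, edgeR adjusted p = 0.088). The groups did not overlap for any of the 3, and DESeq2 called each lower. Of all tested genes, 13.4% were separated with MUT lower.

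The citric acid cycle and pyruvate dehydrogenase, which feed electrons to the chain, had 13 of 16 values above 0 and a median of 0.16. Of them edgeR, DESeq2 and limma-voom each called 0, with 2 higher and 1 lower at an unadjusted edgeR p below 0.05. Among those genes 5 were higher in every MUT library than in any WT library and 1 was lower, with 12.8% and 13.4% of all tested genes separated in those ways. Electron carriers and the enzymes that make ubiquinone had 9 values above and 10 below 0 of 19 (median -0.11). Of them edgeR called 0, with 1 higher and 2 lower at an unadjusted p below 0.05, DESeq2 called 1 lower and limma-voom called 0. That gene, ETFB, a subunit of the electron transfer flavoprotein, was at 19.4, 14.6 and 21.0 CPM in MUT and at 25.3, 28.9 and 30.7 CPM in WT (-0.63, SE 0.16, edgeR adjusted p = 0.0772, DESeq2 adjusted p = 0.00759), with no overlap. CYCS, cytochrome c, was at 38.3, 60.7 and 37.5 CPM in MUT and at 42.7, 46.8 and 38.2 CPM in WT (0.10, SE 0.20), and its groups overlapped.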
